A study of Mus musculus with 8 samples.

Results

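Messenger RNA on tagged ribosomes of mouse medial prefrontal cortex (mPFC) cells that project to the region labelled NAC was compared with the unpurified RNA of the same kind of tissue. The comparison used the 2 arrays labelled NAC-projecting, called pull-downs here, and the 2 arrays labelled NAC-projecting-input, called inputs, which were 4 of the 8 arrays of the study. All probe sets with exactly 1 gene symbol entered it, which were 23521 of the 41345 on the array. They stood for 22180 genes, each read from its brightest probe set, and 11712 genes were bright enough to be tested. The other 4 arrays of the study were pull-downs and inputs after injection of the region labelled VTA. All mice carried a Cre-dependent ribosome tag for translating ribosome affinity purification (TRAP) and received CAV2-Cre, a canine adenovirus that delivers Cre recombinase, in NAC or in VTA. The mPFC was dissected, and the 2 pull-downs were made with GFP-trap, a reagent that binds green fluorescent protein, while the 2 inputs had no immunoprecipitation. The sample descriptions call the inputs translating RNA as well, but the reagent field gives none for them. The labels do not give the strain, age or sex of the mice, name the tagged ribosomal subunit, say whether animals were pooled, or trace the 2 arrays of a group to separate animals. The p-values therefore measure no more than the spread between these arrays, and that spread may be technical.

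CAV2 enters neurons through the endings of their axons and travels back to the nucleus, so a Cre-dependent tag turns on in neurons whose axons reach the injected site. The labels do not spell out NAC; the abbreviation is in common use for the nucleus accumbens, the ventral part of the striatum. The mPFC cells that reach it are mostly glutamatergic pyramidal neurons of layers 2 to 6, and many are intratelencephalic cells, whose axons stay within the forebrain. Pyramidal tract cells of layer 5 send axons below the forebrain and can leave branches in the striatum. A pull-down of tagged ribosomes is meant to hold transcripts of the labelled neurons that ribosomes carry, while the input holds RNA of every cell of the tissue, including nuclear RNA that no ribosome binds.

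Values were log2 signals as the authors deposited them, and a difference of 1 on this scale is a 2-fold change. Differences are pull-down minus input, with the standard error (SE) of a linear model fitted to all 8 arrays with limma. A gene was called higher or lower where its Benjamini-Hochberg adjusted p over the 11712 genes was under 0.05. Over all probe sets, arrays of the same NAC group correlated at 0.988 to 0.991, and pull-downs with inputs at 0.983 to 0.987. With 2 arrays a group, the number of arrays limits the precision. The median difference of all genes tested was -0.061.

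In the NAC pull-downs 508 genes (4.34% of those tested) were higher than in the inputs and 938 (8.01%) were lower. The differences were mostly small, since 10 genes were at least 2-fold higher and 28 at least 2-fold lower. Both pull-downs lay above both inputs for 2670 genes (22.8%) and below both for 4621 (39.5%), and these shares are the background for each statement below that groups did not overlap. Centring each array on its median moved the split to 561 higher (4.79%) and 633 lower (5.4%), with 1139 of the 1446 genes called before. Quantile normalization gave 809 higher and 755 lower, with 1244 of the 1446 shared. The excess of lower over higher genes was thus smaller after centring and turned under quantile normalization. Many calls were lost when 1 of the 4 NAC arrays was left out, fewest without the first pull-down. Such a fit leaves 1 array in a group and is less precise, so a lost call alone shows neither a changed nor an unchanged difference. Over these fits the median of the respiratory chain list was 0.331 to 0.364 and that of the microglia list -0.542 to -0.45. That of the snoRNA host genes ran from -0.061 to 0.069. Other medians moved more, from -0.359 to -0.196 for interferon and antigen presentation genes and from -0.601 to -0.36 for immunoglobulin genes. Single genes moved as well, such as Igkv9-120, at -0.918 with all arrays and -0.532 without the second pull-down. Of the 163 called genes among the 181 genes that the rule for named genes chose, 41 passed whichever of the 4 arrays was left out. Those 41 are said below to have kept their call, and every other called gene lost it without at least 1 of these arrays or was not followed in this way.

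The largest rises among genes above the array median on all 4 arrays included a translation machinery gene, a nucleolar gene and several small mitochondrial and cytoskeletal genes. Tma7, which encodes a small protein associated with the translation machinery, measured 10.42 and 10.35 in the pull-downs and 8.98 and 9.08 in the inputs. Its rise was 1.36 ± 0.21 (SE) with an adjusted p of 0.0063, but the call was lost without either input, and the dimmer of its 2 probe sets showed 0.92 with an adjusted p of 0.22. Nol8, a nucleolar protein of ribosome production, measured 8.72 and 8.78 in the pull-downs and 7.54 and 7.57 in the inputs. Both pull-downs of Nol8 exceeded both inputs, the difference of 1.19 ± 0.11 (SE) had an adjusted p of 9e-04, and the gene kept its call. The gene 1700007K13Rik measured 7.49 and 7.49 in the pull-downs and 6.38 and 6.4 in the inputs, with pull-downs that agreed to the second decimal and a rise of 1.1 ± 0.088 (SE) (adjusted p = 0.00029). Lsm3, a subunit of the ring that binds U6 small nuclear RNA, measured 7.97 and 7.83 against 6.96 and 6.9 and rose by 0.97 ± 0.1 (SE) (adjusted p = 0.0016). Pop5, a subunit of RNase P and RNase MRP, measured 8.4 and 8.46 against 7.62 and 7.42 and rose by 0.91 ± 0.12 (SE) (adjusted p = 0.0035). Both groups were apart for Lsm3 and for Pop5, and these genes, like 1700007K13Rik, kept their call. A 5S ribosomal RNA gene, n-R5s136, measured 9.98 and 9.93 against 9.09 and 8.84 and rose by 0.99 ± 0.16 (SE) (adjusted p = 0.0072), a call lost without the second input.

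**Figure D1:**
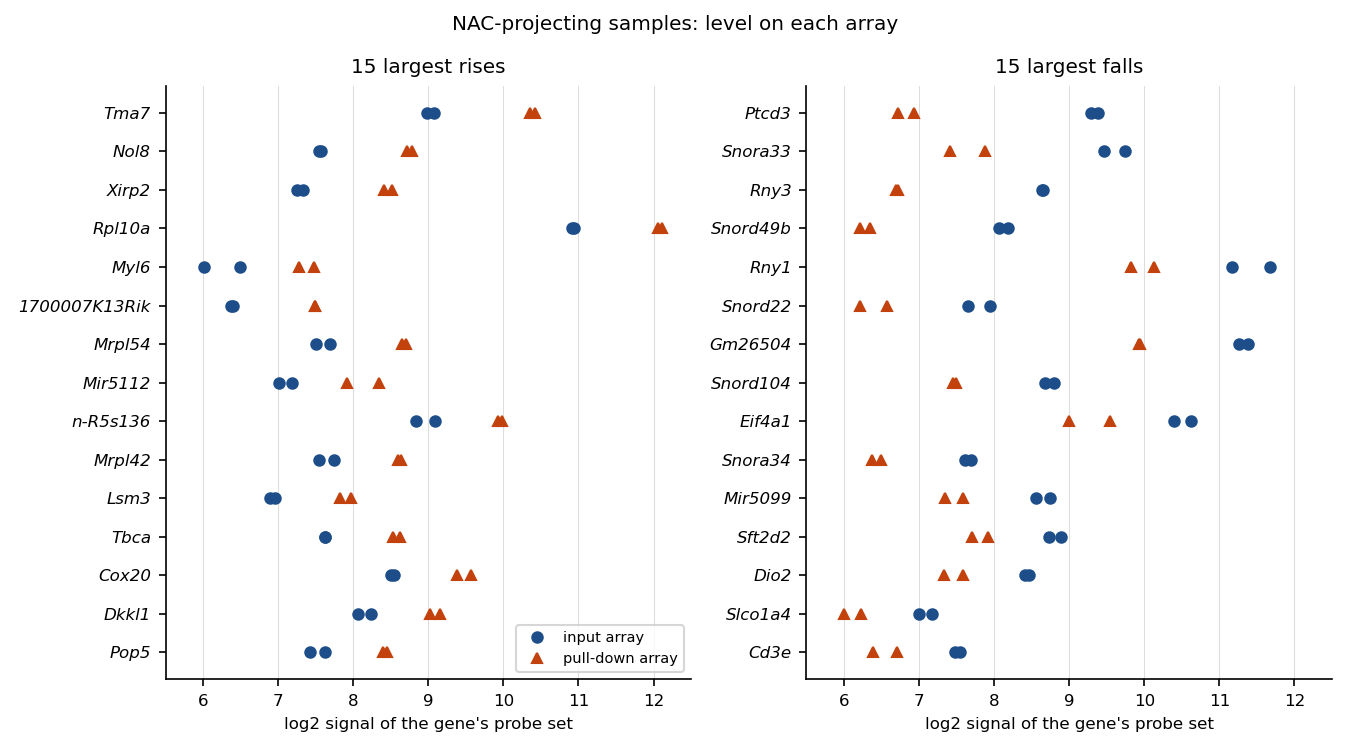
Log2 signal of the 15 genes with the largest rises (left) and the 15 with the largest falls (right) on each NAC array, among called genes above the array median on all 4 arrays. Triangles are the 2 pull-down arrays and circles the 2 input arrays. The groups are apart in every row because the choice of genes required it. The falls reach further than the rises, to -2.51 for the probe set shown for Ptcd3 against 1.36 for Tma7. The 2 probe sets of Ptcd3 disagreed, and so did those of Eif4a1.

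Rpl10a rose in the pull-downs. This gene encodes the ribosomal protein that carries the GFP tag in widely used TRAP lines. It measured 12.05 and 12.12 in the pull-downs and 10.92 and 10.94 in the inputs, so that both pull-downs lay more than 1 log2 unit above both inputs. The difference was 1.15 ± 0.14 (SE) with an adjusted p of 0.0023, Rpl10a kept its call, and the VTA pull-downs exceeded their own inputs by 1.83 ± 0.14 (SE). The probe set cannot separate the endogenous transcript from that of a transgene. Other cytosolic ribosomal protein genes moved by small amounts, mostly upward. Of 49 tested, 4 were called higher (Rpl10a, Rpl41, Rps29 and Rpl19) and 0 lower, with a median of 0.16 against -0.061 for all genes. A difference above 0 was seen in 40 of the 49. Both pull-downs lay above both inputs for 29 and below both for 3, beside 22.8% and 39.5% of all genes. Rpl41, the shortest ribosomal protein, measured 11.84 and 11.86 in the pull-downs and 11.18 and 11.17 in the inputs, a rise of 0.67 ± 0.090 (SE) (adjusted p = 0.0035). All 5 of its probe sets were called higher, and the gene kept its call. Rps29 (0.42 ± 0.11 (SE), adjusted p = 0.037) and Rpl19 (0.37 ± 0.095 (SE), adjusted p = 0.037) were near the threshold and lost their call without the second pull-down, without either input and, for Rpl19, without the first pull-down. With the mean of its 2 probe sets Rpl19 was at 0.305 and did not pass (limma adjusted p = 0.094). Ribosomal protein genes have many near-identical pseudogenes, so their probe sets may share signal with copies.

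Initiation and elongation factors were near the background, with 3 higher and 1 lower of 60 and a median of 0.015. Besides Tma7, Eif3i, a subunit of the initiation factor that prepares the small ribosomal subunit, was at 0.39 ± 0.1 (SE) (adjusted p = 0.038), and Eef1akmt1, a methyltransferase of elongation factor 1A, at 0.39 ± 0.097 (SE) (adjusted p = 0.032). Both lost their call whichever of the 4 arrays was left out. Eif4a1, the helicase that unwinds messenger RNA for initiation, was the member called lower. Its 2 probe sets disagreed, and it is described with the small nucleolar RNAs.

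Nuclear-encoded genes of the mitochondrion rose in greater number. Subunits and assembly factors of the respiratory chain had 34 of 74 tested members higher and 0 lower, with a median of 0.34. The counts were the same after centring each array. Both pull-downs exceeded both inputs for 59 of the 74, and 4.34% of all genes were called higher. Ndufa1, an accessory subunit of complex I, measured 9.64 and 9.5 in the pull-downs and 8.71 and 8.74 in the inputs, and Ndufa7, another, 8.65 and 8.66 in the pull-downs and 7.72 and 7.91 in the inputs. The rises were 0.84 ± 0.099 (SE) and 0.84 ± 0.098 (SE), the arrays of each gene were split by group without overlap, and both genes kept their call (adjusted p = 0.0022 for both). Atp5k, the e subunit of the ATP synthase, measured 9.26 and 9.48 against 8.71 and 8.49 and rose by 0.77 ± 0.12 (SE) (adjusted p = 0.0057), a call lost without the second input. Cox7b, a subunit of cytochrome c oxidase, measured 10.05 and 10.71 in the pull-downs and 9.32 and 9.86 in the inputs. Here the spread within each group was wide, the first pull-down lay just above the second input, and the difference of 0.79 ± 0.22 (SE) was close to the threshold (adjusted p = 0.041). With the mean of its 2 probe sets Cox7b was at 0.417 and did not pass (limma adjusted p = 0.067). Cox20, which assembles the same oxidase and is no member of the list, rose by 0.95 ± 0.17 (SE) (adjusted p = 0.011), from 9.57 and 9.38 against 8.5 and 8.55, and lost its call without either input. With single arrays left out, the number of list members called higher was 22 without the first pull-down, 6 without the second pull-down, 7 without the first input and 4 without the second input.

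Mitochondrial ribosomal proteins build the ribosome that translates the genes of the mitochondrial genome. Of 68 tested, 26 rose and 0 fell, beside 4.34% and 8.01% of all genes. The median was 0.31, and 64 of the 68 had a difference above 0. Mrpl54 measured 8.71 and 8.65 in the pull-downs and 7.5 and 7.7 in the inputs, a rise of 1.08 ± 0.13 (SE) (adjusted p = 0.0023). Mrpl42 measured 8.63 and 8.6 in the pull-downs and 7.54 and 7.75 in the inputs, a rise of 0.97 ± 0.11 (SE) (adjusted p = 0.002). For both genes the pull-downs agreed more closely than the inputs, and both kept their call. Mrpl20 rose by 0.85 ± 0.14 (SE) (adjusted p = 0.0075) and Mrpl13 by 0.77 ± 0.15 (SE) (adjusted p = 0.015), but Mrpl20 lost its call without the first input and Mrpl13 without either input. The number of members called higher was 14 without the first pull-down, 8 without the second pull-down, 3 without the first input and 6 without the second input. The 10 genes of the mitochondrial genome itself had 0 calls in either direction in limma and a median of 0.068, and 0 of them had an unadjusted p under 0.05. Their summed linear signal was 74163 and 73571 in the pull-downs and 68190 and 73356 in the inputs, and the second input lay close to the pull-downs.

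The deepest falls were in small noncoding RNAs of the nucleus. Small nucleolar RNAs (snoRNAs) guide the chemical modification of ribosomal RNA in the nucleolus and are not translated. Of 33 tested on the list, 20 fell and 0 rose, with a median of -0.98, and 8.01% of all genes were called lower. Snord110 measured 6.24 and 5.4 in the pull-downs and 9.61 and 9.3 in the inputs, Snord47 4.65 and 4.33 in the pull-downs and 8.01 and 8.13 in the inputs, and Snord111 3.52 and 3.02 in the pull-downs and 6.6 and 6.14 in the inputs. In each case both pull-downs lay more than 2 log2 units below both inputs, and 1 or both of the pull-downs were dimmer than the median of their array. The differences were -3.64 ± 0.23 (SE), -3.58 ± 0.15 (SE) and -3.1 ± 0.22 (SE). Such genes could pass the filter through the inputs, where they were high, so these values are given as a description. Snora33, a guide for pseudouridine, stayed above the array median on all 4 arrays and measured 7.88 and 7.41 in the pull-downs and 9.74 and 9.46 in the inputs. Its difference was -1.96 ± 0.16 (SE) (adjusted p = 0.00029). Snord49b (-1.85), Snord104 (-1.27), Snora34 (-1.22) and Snord87 (-2.78) also fell and, like the 4 before, kept their call. Both pull-downs of Snord87 were dimmer than the median of their array, and its value too is a description. Snord22 fell by 1.41 ± 0.28 (SE) (adjusted p = 0.015), but lost its call without the second pull-down and without either input. The number of list members called lower was 18 without the first pull-down, 15 without the second pull-down, 13 without the first input and 14 without the second input. The list has 73 members on the array, and a dim one could enter the test through the inputs alone. Of the 15 members above the median on all 4 NAC arrays, 6 fell and 0 rose, with a median of -0.356. Over every gene that the RefSeq table classes as a snoRNA, 23 of 37 were lower and 0 higher.

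Cajal body RNAs guide the modification of spliceosomal RNA, and Y RNAs bind the Ro protein. Of the 8 tested in a list of these and other small noncoding RNAs, 6 fell, 0 rose and the pull-downs lay below the inputs for all 8. Over all genes 8.01% were called lower, and both pull-downs lay below both inputs for 39.5%. Rny3 measured 6.7 and 6.72 in the pull-downs and 8.63 and 8.65 in the inputs, with replicates that agreed closely, a difference of -1.93 ± 0.2 (SE) (adjusted p = 0.0014). Rny1 measured 9.83 and 10.13 in the pull-downs and 11.16 and 11.67 in the inputs, a difference of -1.44 ± 0.16 (SE) (adjusted p = 0.002) with a wider spread inside each group. Scarna10 fell by 1.5 ± 0.15 (SE) and Scarna6 by 1.27 ± 0.24 (SE). Both pull-downs of each gene were dimmer than the median of their array, so these values are given as a description. Rny3, Rny1 and Scarna10 kept their call, and Scarna6 lost it without the second pull-down or the second input. The list's count without single arrays was 6 without the first pull-down, 3 without the second pull-down, 4 without the first input and 3 without the second input.

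Among 11 nuclear and neuronal long noncoding RNAs, 5 fell and 0 rose, beside 8.01% and 4.34% of all genes, with a median of -0.28. Snhg14, the long transcript of the imprinted Prader-Willi and Angelman region, measured 8.38 and 8.14 in the pull-downs and 8.98 and 8.98 in the inputs, a difference of -0.73 ± 0.13 (SE) (adjusted p = 0.01). Miat, a nuclear RNA of neurons, measured 6.3 and 6.38 in the pull-downs and 6.89 and 6.86 in the inputs, a difference of -0.54 ± 0.096 (SE) (adjusted p = 0.011). Pull-downs and inputs did not overlap for either gene. Rian (-0.61, adjusted p = 0.011) and Snhg11 (-0.5, adjusted p = 0.012) also fell. For Snhg11 the mean of its 2 probe sets was at -0.349 and did not pass (limma adjusted p = 0.059). None of these 4 passed without the second pull-down or without either input, and without those arrays 0 members of the list were called. Long noncoding RNAs as a class were near the background, with 12 higher and 15 lower of 289. Gm26504 fell by 1.38 ± 0.092 (SE) (adjusted p = 0.00012), from 9.94 and 9.94 against 11.26 and 11.38, and kept its call. It has 15 probe sets with identical values, so its signal may be shared with near-identical copies.

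Some probe sets of genes that contain snoRNA genes fell with the snoRNAs. Ptcd3, a protein of mitochondrial translation, measured 6.72 and 6.93 in the pull-downs and 9.29 and 9.38 in the inputs, the deepest fall among genes above the median on all 4 arrays at -2.51 ± 0.24 (SE) (adjusted p = 0.00095). Its second probe set measured 8.25 and 7.99 in the pull-downs and 8.04 and 7.78 in the inputs, a difference of 0.21 (adjusted p = 0.4 when each probe set was tested on its own). Eif4a1 measured 9.0 and 9.54 in the pull-downs and 10.4 and 10.62 in the inputs, a difference of -1.24 ± 0.17 (SE) (adjusted p = 0.0039), and its second probe set differed by 0.19 in the other direction (adjusted p = 0.25). The 2 probe sets of each gene thus disagreed, and no direction is given here for either messenger RNA. The RefSeq table places 1 snoRNA gene within Ptcd3 and 3 within Eif4a1. Of 288 tested protein-coding genes that hold a snoRNA gene, 31 fell (10.8%) and 3 rose, with a median of -0.137. Of the 10842 that hold none, 847 fell (7.81%) and 476 rose, with a median of -0.061. Whether probe sets of these genes read the snoRNA was not tested.

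MicroRNA genes as a class were near the background: of 77 tested, 4 rose and 6 fell, with a median of 0.041. A probe set here cannot separate the precursor from the mature microRNA. Mir5112 rose by 1.03 ± 0.2 (SE) (adjusted p = 0.013) and Mir5099 fell by 1.18 ± 0.17 (SE) (adjusted p = 0.0043), but Mir5112 lost its call without the second pull-down or either input, and Mir5099 without the first input. Of the 6 that fell, 3 lie in the imprinted interval between Dlk1 and Dio3, whose maternal chromosome expresses a chain of long noncoding RNAs, snoRNAs and microRNAs in brain. This interval was looked at after its values had been seen. Of 16 genes tested in it, 6 fell, 0 rose and 12 had a difference below 0, with a median of -0.303, where 8.01% of all genes fell with a median of -0.061. Since the interval was picked for these values, the counts are a description of it.

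The sequences of the 3 microRNA genes of the interval are shown because their fall went with that of the long noncoding RNA Rian and 2 snoRNA genes beside them. They come from RefSeq on GRCm38.p6, all on the plus strand of chromosome 12, with the seed (bases 2 to 8) in capitals. The precursor of Mir493 lies at chr12:109580233-109580315, that of Mir3070b at chr12:109588592-109588680 and that of Mir1188 at chr12:109611822-109611941.
mmu-miR-493-5p: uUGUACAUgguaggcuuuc
mmu-miR-493-3p: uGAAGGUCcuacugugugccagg
mmu-miR-3070-5p: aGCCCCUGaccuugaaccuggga
mmu-miR-3070-2-3p: uGGUGCUAuggucagggguaga
mmu-miR-1188-5p: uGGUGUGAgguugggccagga
mmu-miR-1188-3p: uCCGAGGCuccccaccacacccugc
Mature sequences were compared for 8 of the 10 called microRNA genes, 13 in all, without Mir5112 and Mir5099. None of the 6 mature sequences above shares its seed with another of these 13. Mir493 measured 6.35 and 5.38 in the pull-downs and 6.95 and 6.87 in the inputs, and its second pull-down was almost 1 log2 unit below the first. The difference was -1.04 ± 0.25 (SE) (adjusted p = 0.029). Mir1188 was at -0.66 ± 0.15 (SE) and Mir3070b at -0.55 ± 0.14 (SE). The pull-downs of Mir1188 (5.77 and 5.3) and Mir3070b (5.66 and 5.51) were dimmer than the median of their array. On the NAC arrays both genes exceeded that median in the inputs alone, so these values are given as a description. Of the neighbouring snoRNA genes, AF357355 was at -1.96 ± 0.43 (SE) (adjusted p = 0.021) with pull-downs at 6.42 and 4.83, and AF357425 at -0.54 ± 0.11 (SE) (adjusted p = 0.018). Meg3, the first long noncoding RNA of the chain, overlapped between groups at 6.44 and 6.23 against 6.35 and 6.54 (adjusted p = 0.62).

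Markers of neurons did not rise as a group. Glutamatergic projection neuron genes had 1 higher and 1 lower of 18, beside 4.34% and 8.01% of all genes, with a median of 0.059. Slc17a7, the vesicular glutamate transporter of cortical pyramidal cells, measured 11.75 and 11.74 in the pull-downs and 11.79 and 11.73 in the inputs, and the groups overlapped (-0.016 ± 0.087 (SE), adjusted p = 0.92). Camk2a, a kinase abundant in pyramidal cells, measured 11.63 and 11.64 against 11.85 and 11.89 (adjusted p = 0.11). Neurod6, a transcription factor of pyramidal neurons, measured 9.69 and 9.51 in the pull-downs and 9.08 and 9.24 in the inputs and was higher by 0.44 ± 0.12 (SE) (adjusted p = 0.04), and Mlip was lower at -0.37 ± 0.096 (SE) (adjusted p = 0.037). Both lost their call whichever of the 4 arrays was left out.

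Genes of the cortical layers are given beside the 4.34% of all genes called higher and the 8.01% called lower. Layer 2/3 intratelencephalic markers had 5 of 24 lower and 0 higher, with a median of -0.25. Rorb, a nuclear receptor of layer 4 and upper layer 5 that 2 of the lists share, measured 8.1 and 8.16 in the pull-downs and 8.66 and 8.73 in the inputs, a difference of -0.57 ± 0.098 (SE) (adjusted p = 0.0097). Calb1, the calcium buffer calbindin, was at -0.53, Rasgrf2 at -0.48 and Nectin3, an adhesion molecule, at -0.48. Cux2, the defining factor of upper layers, overlapped between the groups at 7.73 and 7.72 against 7.72 and 7.82. Layer 6 and subplate markers had 3 of 22 lower and 0 higher (median -0.19), led by Rxfp1, the relaxin receptor, at -0.63 and Moxd1 at -0.59. Foxp2, a factor of layer 6 corticothalamic cells, was at -0.35 ± 0.11 (SE) and did not pass (adjusted p = 0.066). Without the second pull-down, the first input or the second input, 0 members of the layer 2/3 and layer 6 lists were called.

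Layer 5 markers moved both ways. Of 15 intratelencephalic markers 1 was higher and 4 were lower, with a median of -0.085. Dkkl1, a dickkopf-like gene on this list, was the higher one. It measured 9.15 and 9.02 in the pull-downs and 8.23 and 8.07 in the inputs, a rise of 0.93 ± 0.099 (SE) (adjusted p = 0.0016), and kept its call. Kcnip1 (-0.51), Cadps2 (-0.51) and Rorb were among those that fell. Etv1 (0.17 ± 0.1 (SE)) and Deptor (0.051 ± 0.17 (SE)), the first genes of the list, did not pass. Of 23 pyramidal tract markers 3 were higher and 4 lower. Pcp4, a calmodulin regulator, measured 12.74 and 12.59 in the pull-downs and 12.15 and 11.98 in the inputs, a rise of 0.6 ± 0.12 (SE) (adjusted p = 0.015). S100a10 was at 0.47 ± 0.13 (SE) (adjusted p = 0.04), while Npr3, a clearance receptor of natriuretic peptides, was at -0.46 ± 0.11 (SE) (adjusted p = 0.025) and Npnt, a matrix protein, at -0.43 ± 0.12 (SE) (adjusted p = 0.042). Fezf2 and Bcl11b, the transcription factors that specify pyramidal tract cells, were at -0.026 and -0.27 with overlapping groups for Fezf2, and neither passed. With single arrays left out, 0 pyramidal tract markers were called higher, and 1 was called lower, without the first pull-down.

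GABAergic interneurons are local cortical cells that as a rule send no axon to the accumbens. Of 33 markers tested 14 were lower and 0 higher, beside 8.01% and 4.34% of all genes. Their median was -0.36, against -0.061 for all genes. Gad2, which makes GABA, measured 8.79 and 8.61 in the pull-downs and 9.49 and 9.48 in the inputs, and the pull-downs lay below the inputs without overlap. Its difference was -0.79 ± 0.13 (SE) (adjusted p = 0.0071). Nxph1, a neurexin ligand of interneurons, measured 7.17 and 7.01 in the pull-downs and 7.9 and 7.79 in the inputs, a difference of -0.76 ± 0.1 (SE) (adjusted p = 0.0036), and was the only interneuron gene named here that kept its call. Erbb4, the neuregulin receptor, fell by 0.72 ± 0.11 (SE) (adjusted p = 0.0062), and Gad1, dim on these arrays, by 0.46 ± 0.12 (SE) (adjusted p = 0.035). The summed linear signal of the list was 9243 and 8929 in the pull-downs and 10968 and 10931 in the inputs, and the count called lower was 13 without the first pull-down, 1 without the second pull-down, 2 without the first input and 3 without the second input. The comparison is between purified and unpurified RNA of the same kind of tissue. It measures neither the number of cells of a type nor the RNA per cell.

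Glial markers were lower wherever they were called, with 1 exception among astrocytes. Of all genes 8.01% were called lower and 4.34% higher, with a median of -0.061. Microglia, the resident macrophages of the brain, had 26 of 36 markers lower and 0 higher, with a median of -0.5. All 36 differences were below 0. Csf1r, the receptor that microglia need to survive, measured 8.72 and 8.68 in the pull-downs and 9.36 and 9.36 in the inputs, with replicates that agreed closely and a difference of -0.66 ± 0.091 (SE) (adjusted p = 0.0038), and kept its call. Itgam, the alpha chain of complement receptor CR3, measured 7.42 and 6.91 in the pull-downs and 8.06 and 7.97 in the inputs, a difference of -0.85 ± 0.15 (SE) (adjusted p = 0.011) with a wide gap between the pull-downs. Cd33 (-0.83), Fcrls (-0.78) and Ly86 (-0.68) also fell. Cx3cr1, the fractalkine receptor, was at -0.37 ± 0.094 (SE) (adjusted p = 0.036), and lost its call after centring or quantile normalization. The summed signal of the list was 8767 and 8550 in the pull-downs and 12552 and 12663 in the inputs. The number called lower was 20 without the first pull-down, 6 without the second pull-down, 4 without the first input and 2 without the second input.

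Oligodendrocytes, which make myelin, had 20 of 33 markers lower and 0 higher, beside 8.01% and 4.34% of all genes, with a median of -0.4. Mog, a protein of the outer myelin surface, measured 8.17 and 7.93 in the pull-downs and 9.07 and 8.88 in the inputs, a difference of -0.92 ± 0.12 (SE) (adjusted p = 0.0035). Gpr37, a receptor of myelinating cells, measured 8.72 and 8.66 in the pull-downs and 9.49 and 9.42 in the inputs, a difference of -0.77 ± 0.1 (SE) (adjusted p = 0.0031). Mal (-0.74) and the connexin Gjc3 (-0.89) fell too, and all 4 genes kept their call. Mbp, whose messenger RNA is carried into myelin processes, measured 9.22 and 9.22 against 9.28 and 9.38 and did not pass (-0.11 ± 0.089 (SE), adjusted p = 0.42). Precursors of these cells had 8 of 20 markers lower and 0 higher (median -0.29), including Gpr17 (-0.81), Olig2 (-0.73) and Pdgfra (-0.68). Gpr17 and Olig2 kept their call, while Pdgfra lost it without the second pull-down or either input, and Cspg4 did not pass (-0.1). The oligodendrocyte list summed to 14376 and 13859 in the pull-downs and 20439 and 20129 in the inputs, and its count called lower was 15 without the first pull-down, 7 without the second pull-down, 6 without the first input and 8 without the second input.

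Counts of astrocyte and vascular markers stand beside 8.01% of all genes called lower and 4.34% called higher. Astrocytes had 15 of 32 markers lower and 1 higher, with a median of -0.34. Dio2, which activates thyroid hormone, measured 7.59 and 7.33 in the pull-downs and 8.47 and 8.42 in the inputs, a difference of -0.98 ± 0.12 (SE) (adjusted p = 0.0024). Gja1, the main connexin of astrocytes, measured 8.54 and 8.52 in the pull-downs and 9.24 and 9.16 in the inputs, a difference of -0.67 ± 0.092 (SE) (adjusted p = 0.0038). Both kept their call. Slc6a11, a GABA transporter, was at -0.76 and the water channel Aqp4 at -0.69, while Gfap, the astrocytic filament protein, did not pass (-0.25 ± 0.1 (SE), adjusted p = 0.13). Mt3, a metallothionein, was the member that was higher, by 0.37. The count called lower was 9 without the first pull-down, 3 without the second pull-down, 2 without the first input and 3 without the second input. Endothelial markers had 9 of 30 lower and 1 higher (Egfl7, 0.5), with a median of -0.3. Slco1a4, a transporter of the blood-brain barrier, measured 6.22 and 6.0 in the pull-downs and 7.18 and 7.0 in the inputs, a difference of -0.98 ± 0.15 (SE) (adjusted p = 0.0062), lost without the first input. Cldn5, the claudin of brain capillaries, was at -0.42 (adjusted p = 0.077) and Flt1 at -0.33 (adjusted p = 0.091), with both pull-downs below both inputs. Mural cells and fibroblasts had 10 of 27 lower and 0 higher, among them Islr (-0.67), Dcn (-0.61) and Pdgfrb (-0.55). Without the second pull-down or either input the endothelial count was 1 and the mural count 0.

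**Figure D2:**
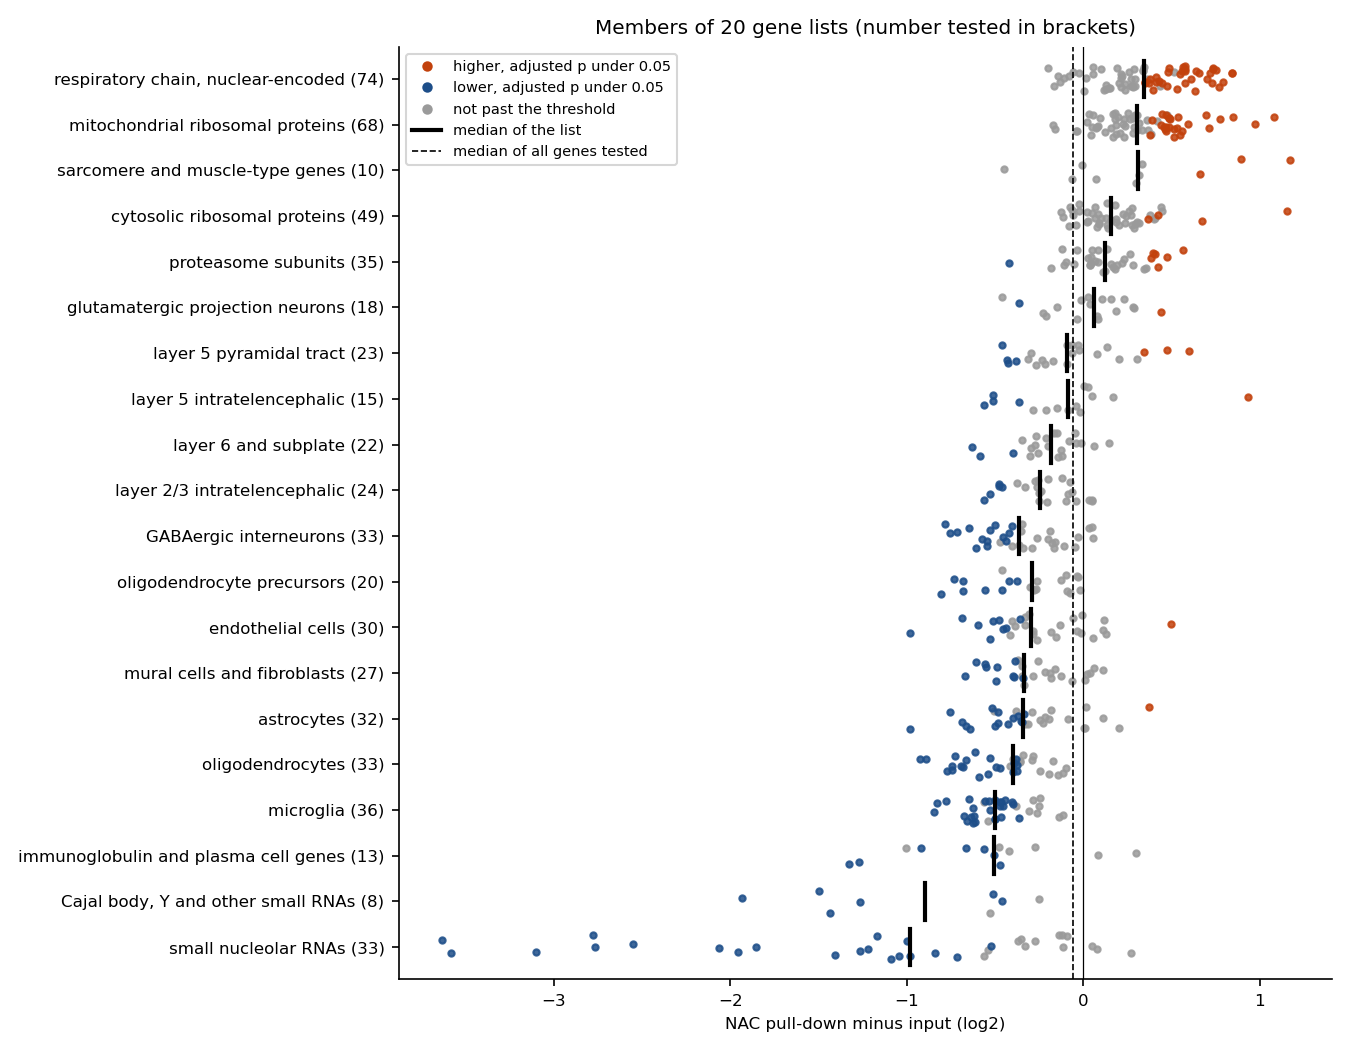
Differences between NAC pull-down and input (log2) for the tested members of 20 gene lists, 1 point per gene. Orange points were called higher, blue points lower and grey points did not pass; thick bars are list medians and the dashed line is the median of all genes tested, at -0.061. Respiratory chain genes sit to the right of the dashed line with a median of 0.34, microglial genes to the left with -0.50, and small nucleolar RNAs furthest left with -0.98.

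Immune genes were lower where they were called, with 1 exception, beside 8.01% of all genes called lower and 4.34% higher. Of 39 interferon and antigen presentation genes 8 were lower and 1 higher, with a median of -0.26. Gbp7, an interferon-induced GTPase, measured 7.61 and 7.73 in the pull-downs and 8.18 and 8.41 in the inputs, a difference of -0.62 ± 0.11 (SE) (adjusted p = 0.012). H2-Ab1, a chain of MHC class II, was at -0.57, Stat2, the interferon signal transducer, at -0.54 and Tap1, the peptide transporter, at -0.43. These calls were lost without the second pull-down or the second input, and the microglial list fell in the same arrays; the part of microglial RNA in them was not tested. Of 13 immunoglobulin and plasma cell genes 7 were lower and 0 higher. Of the 9 members above the median on all 4 arrays, 5 were lower. Ighg3, a heavy chain constant region, measured 4.55 and 5.08 in the pull-downs and 6.02 and 6.14 in the inputs. Both pull-downs were dimmer than the median of their array, so that Ighg3 entered the test through the NAC inputs alone, and its difference of -1.27 is given as a description. Igkv9-120 was at -0.92 ± 0.2 (SE) (adjusted p = 0.022). Ig segments are close in sequence, so their probe sets may share signal, and Jchain, the joining chain of secreted antibodies, did not pass (-0.48 ± 0.16 (SE), adjusted p = 0.074). The list's count was 7 without the first pull-down, 1 without the second pull-down, 1 without the first input and 0 without the second input. Of 7 T cell genes tested 2 were lower, Cd3e (-0.97 ± 0.19 (SE), adjusted p = 0.015) and Cd4 (-0.58 ± 0.11 (SE), adjusted p = 0.015), and neither was called without the second pull-down or either input.

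Receptors and channels of neurons were lower where they were called, with few exceptions, beside 8.01% of all genes called lower and 4.34% higher. Of 21 glutamate receptor genes 5 were lower and 0 higher, with a median of -0.22. Grin3a, an NMDA receptor subunit, measured 6.99 and 6.67 in the pull-downs and 7.71 and 7.52 in the inputs, a difference of -0.78 ± 0.12 (SE) (adjusted p = 0.0063). Grik1, a kainate receptor subunit, was at -0.53, and the AMPA receptor subunits Gria3 and Gria1 at -0.42 and -0.38. Of 11 GABA receptor genes 3 were lower, Gabra2 (-0.68 ± 0.11 (SE), adjusted p = 0.0072), Gabra3 (-0.36) and Gabrb1 (-0.35), and only Gabra2 passed after centring. Of 29 receptors for monoamines, acetylcholine, opioids and cannabinoids 6 were lower and 1, Adra1b (0.36), was higher. Htr2c, a serotonin receptor, measured 6.95 and 6.64 in the pull-downs and 7.67 and 7.35 in the inputs, a difference of -0.71 ± 0.13 (SE) (adjusted p = 0.012). This gene also holds 1 snoRNA gene and has 1 probe set, and whether that probe set reads the snoRNA was not tested. Htr1a, another, was at -0.64, the dopamine receptor Drd1 at -0.63 and the nicotinic receptor Chrna7 at -0.47, while Drd2 overlapped between the groups at 7.38 and 7.47 against 7.29 and 7.54. Calls in these 3 lists were largely lost without the second pull-down (1, 0 and 0 lower), the first input (0, 0 and 0) or the second input (1, 0 and 2).

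Ion channel, release, guidance, adhesion and matrix genes are given beside the 8.01% of all genes called lower and the 4.34% called higher. Both pull-downs lay below both inputs for 35 of 55 axon guidance genes and 24 of 44 cadherins and protocadherins, beside 39.5% of all genes. They lay above both for 10 and 2 of these, beside 22.8%. Potassium and HCN channels had 8 of 62 lower and 1 higher. Kcnj16, a potassium channel of astrocytes, was at -0.69 ± 0.18 (SE) (adjusted p = 0.039), and Kcnip2, a subunit of A-type channels, at -0.42 ± 0.097 (SE) (adjusted p = 0.025). Sodium and calcium channels had 3 of 29 lower, of which 0 passed after centring. Synaptic vesicle and release genes had 4 of 48 lower, with Unc13c, a priming factor, at -0.6 ± 0.11 (SE) (adjusted p = 0.01) and Syt2, a calcium sensor of fast release, at -0.46 ± 0.099 (SE) (adjusted p = 0.02). Postsynaptic genes had 2 of 36 lower and 1 higher, Camk2n2, an inhibitor of CaMKII (0.48 ± 0.11 (SE), adjusted p = 0.027). Axon guidance genes had 7 of 55 lower and 0 higher, led by Sema6a, measured at 8.07 and 8.02 in the pull-downs and 8.58 and 8.83 in the inputs (-0.66 ± 0.13 (SE), adjusted p = 0.014). Cadherins and protocadherins had 6 of 44 lower and 0 higher, led by Cdh20 (-0.68 ± 0.11 (SE), adjusted p = 0.0063). Matrix genes had 6 of 30 lower and 0 higher. Hapln1, the link protein of perineuronal nets, measured 6.33 and 6.1 in the pull-downs and 7.2 and 7.13 in the inputs, a difference of -0.95 ± 0.12 (SE) (adjusted p = 0.0031), and kept its call. Ptprz1 (-0.68), a receptor phosphatase of glia, and Reln (-0.57), which interneurons secrete, also fell, and lost their calls without the second pull-down or either input.

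Neuropeptide and activity-regulated genes were near the background of 4.34% of all genes called higher and 8.01% called lower. Of 29 neuropeptide genes 2 were higher and 3 lower. Vgf, a secreted granin induced by activity, measured 10.21 and 10.26 in the pull-downs and 9.67 and 9.79 in the inputs, a rise of 0.5 ± 0.1 (SE) (adjusted p = 0.017). Chgb, chromogranin B, was higher by 0.36, whereas Nxph1, Pdyn, prodynorphin (-0.53), and Vip, a peptide of interneurons (-0.42), were lower. Of 34 immediate early genes 3 were higher, Vgf, Nptx2 and Egr3 (0.32), and 1 was lower, Jun (-0.41). Nptx2, a secreted pentraxin that gathers AMPA receptors, measured 9.13 and 9.11 in the pull-downs and 8.74 and 8.63 in the inputs, a rise of 0.44 ± 0.092 (SE) (adjusted p = 0.018). Vgf and Nptx2 did not pass without the second pull-down or either input, and Nptx2, Egr3 and Jun not without the first pull-down either.

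Some genes of the cytoskeleton rose, and the counts here stand beside 4.34% of all genes called higher and 8.01% called lower. Of 28 actin and myosin genes 6 were higher and 0 lower. Myl6, a light chain of nonmuscle myosin, measured 7.48 and 7.27 in the pull-downs and 6.5 and 6.02 in the inputs, a rise of 1.12 ± 0.16 (SE) (adjusted p = 0.0042), and kept its call although its inputs lay apart. Tmsb10, which binds actin monomers, measured 6.78 and 7.02 against 6.23 and 5.97 (0.8 ± 0.13 (SE), adjusted p = 0.0073), and Arpc5l, a subunit of the Arp2/3 complex, 8.9 and 8.93 against 8.25 and 8.07 (0.75 ± 0.13 (SE), adjusted p = 0.0097). Of 53 genes for tubulins, motors and tubulin chaperones 5 were higher and 2 lower. Tbca, a tubulin folding cofactor, measured 8.63 and 8.53 in the pull-downs and 7.63 and 7.62 in the inputs, a rise of 0.95 ± 0.096 (SE) (adjusted p = 0.0012). Tbca kept its call. Dynlrb2, a dynein light chain, measured 6.63 and 6.31 in the pull-downs and 5.15 and 5.18 in the inputs. Its inputs were dimmer than the array median, so that it entered the test through the NAC pull-downs alone, and its difference of 1.3 is given as a description. Proteasome subunits had 6 of 35 higher and 1 lower, with Psmd8 at 0.56 ± 0.087 (SE) (adjusted p = 0.0063). Psmd5, an assembly chaperone of the proteasome, was the lower one (-0.42 ± 0.12 (SE), adjusted p = 0.049) and did not pass after centring or quantile normalization.

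A few genes best known from striated muscle were among the rises. Of 35 such genes on the array 10 were bright enough to be tested, and 3 were higher, beside 4.34% of all genes, and 0 lower. Xirp2, an actin-binding protein of muscle, measured 8.51 and 8.41 in the pull-downs and 7.25 and 7.34 in the inputs, a rise of 1.17 ± 0.097 (SE) (adjusted p = 0.00038). Tnnc1, the calcium-binding troponin of slow and cardiac muscle, measured 7.7 and 7.56 in the pull-downs and 6.78 and 6.7 in the inputs, a rise of 0.89 ± 0.11 (SE) (adjusted p = 0.0023). Tnnt2, cardiac troponin T, measured 7.75 and 7.63 in the pull-downs and 7.0 and 7.05 in the inputs, a rise of 0.66 ± 0.098 (SE) (adjusted p = 0.0053). In all 3 genes both pull-downs lay above both inputs. Xirp2 and Tnnc1 kept their call, and Tnnt2 lost it without the first input.

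Differences followed the span of the gene on the chromosome. Over the 11130 protein-coding genes tested, Spearman's rho between span, from the RefSeq table of GRCm38.p6, and the NAC difference was -0.339. This is a correlation across genes, which are not independent replicates, and the points share the same 4 arrays. In the shortest 10% (0.297 to 4.62 kb, 1113 genes) 153 genes were higher (13.7%) and 37 lower (3.32%), with a median of 0.094. In the longest 10% (147 to 2390 kb, 1113 genes) 7 were higher (0.629%) and 152 lower (13.7%), with a median of -0.162. The 4 bins between lay in order on both counts. Span was weakly related to the mean level (rho 0.154). Within genes of low level the shortest 25% had a median of 0.038 and the longest -0.173, and within genes of high level 0.104 and -0.133. Centring the arrays gave medians of 0.127 and -0.13 in the shortest and longest 10%. The lists with the most rises hold many short genes, with a median span of 7.15 kb for the respiratory chain and 7.69 kb for mitochondrial ribosomal proteins. Inside the shortest 25% of genes, 27 of 52 respiratory chain genes were higher, against 254 of the 2731 others (9.3%), and 20 of 46 mitochondrial ribosomal genes, against 261 of 2737 (9.54%). Cytosolic ribosomal proteins, shorter still with a median of 3.14 kb, had 4 of 48 higher among those.

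**Figure D3:**
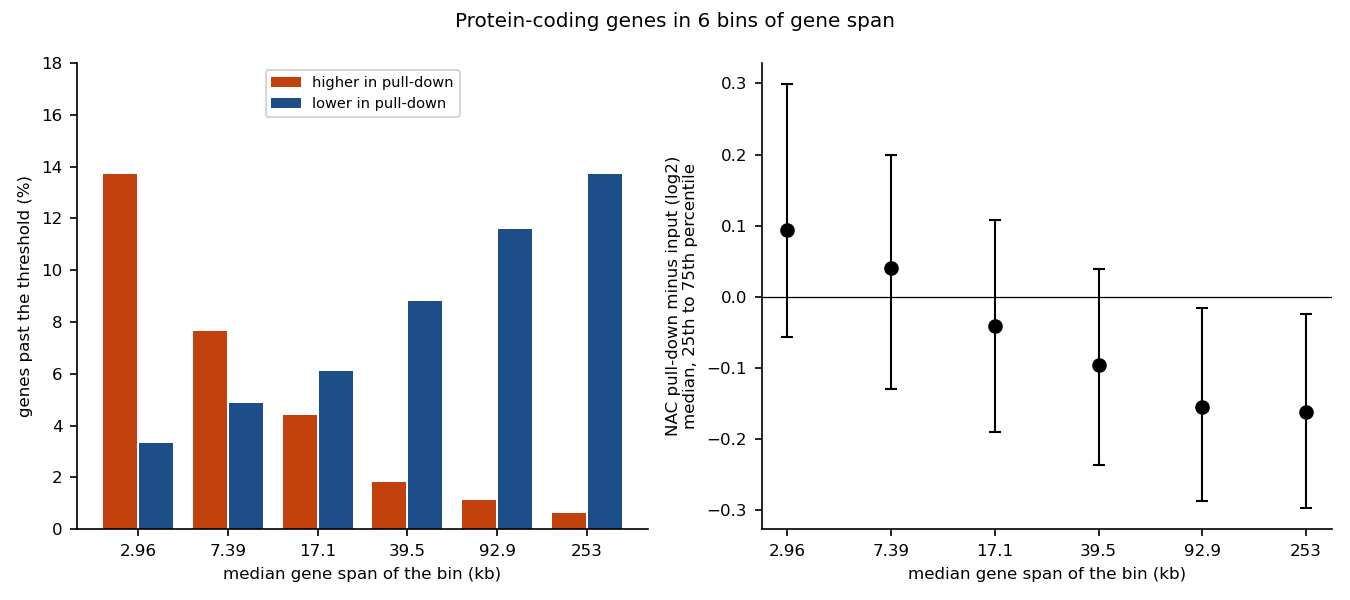
Left, share of protein-coding genes called higher (orange) or lower (blue) in the NAC pull-downs in 6 bins of gene span, labelled by the median span of the bin in kb. Right, median difference (log2) of each bin with the 25th and 75th percentile as bars. The share called higher falls from 13.7% in the shortest bin to 0.629% in the longest, while the share called lower rises from 3.32% to 13.7%.

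The VTA arrays gave the same comparison for another projection without sharing an array. In VTA 637 genes were higher (5.44%) and 3034 lower (25.9%). Of the 508 genes higher in NAC, 245 were higher in VTA too, 48.2% of the NAC genes and 38.5% of the VTA genes, and 9 were lower. Of the 938 genes lower in NAC, 698 were lower in VTA, 74.4% of the NAC genes and 23% of the VTA genes, and 2 were higher. Over all tested genes the differences of both projections correlated at 0.694 (Pearson) and 0.668 (Spearman), given as a description across genes. The respiratory chain had 35 of 74 higher in VTA and the snoRNA list 21 of 33 lower, close to the NAC counts. Mitochondrial ribosomal proteins had 20 higher and 2 lower in VTA, with a median of 0.15 against 0.31 in NAC. Pyramidal tract markers had 7 higher and 2 lower in VTA, against 3 and 4 in NAC. The sarcomere list had 0 higher and 3 lower in VTA, against 3 and 0 in NAC, and the immunoglobulin list 2 higher and 0 lower, against 0 and 7. Differences of these list counts between projections were not tested.

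Tested gene by gene, the NAC difference departed from the VTA difference in 8 of 11712 genes (0.0683%), 7 of them higher in NAC. Xirp2 was the 1 gene of the 8 that passed under all 15 settings tried for it, with adjusted p up to 0.045. That highest value came from the mean of its 2 probe sets, where the difference of the differences was 0.99 against 1.83. Its dimmer probe set thus differed less than its brighter one. The other 7 each lost the call under most settings: 1 gene passed with the replicate number as a block, 1 without either NAC input, without the first VTA input or without the first VTA pull-down, and 2 with quantile normalization. Xirp2 fell in VTA, with 7.08 and 6.96 in the pull-downs and 7.73 and 7.63 in the inputs. The difference of the differences was 1.83 ± 0.14 (SE) (adjusted p = 0.0012), and its NAC inputs lay below its VTA inputs. Tnnc1 measured 7.28 and 7.49 in the pull-downs and 7.8 and 7.72 in the inputs in VTA, a difference of the differences of 1.27 ± 0.15 (SE) (adjusted p = 0.025). Its NAC inputs lay well below its VTA inputs, and its NAC pull-downs did not exceed the VTA inputs. Dkkl1 measured 8.4 and 8.35 in the pull-downs and 8.58 and 8.61 in the inputs in VTA, with both pull-downs below both inputs, against a rise in NAC (1.15 ± 0.14 (SE), adjusted p = 0.025). Nptx2 measured 7.85 and 7.87 in the pull-downs and 8.39 and 8.49 in the inputs in VTA, and its NAC pull-downs were higher than all 6 other arrays (1.02 ± 0.13 (SE), adjusted p = 0.032). The gene 1700007K13Rik (0.91 ± 0.12 (SE), adjusted p = 0.039) and the predicted gene Gm10139 (1.21 ± 0.17 (SE), adjusted p = 0.039) also had a larger NAC difference. Dynlrb2 and Ighg3 were above the array median on 2 of the 8 arrays each, the NAC pull-downs for Dynlrb2 and the NAC inputs for Ighg3, and entered the test through these arrays alone. Their differences of the differences, 1.45 and -2.19, rest on dim signals on the other 6 arrays and are given as a description. The VTA values of Ighg3 were 4.53 and 3.96 in the pull-downs and 3.21 and 3.45 in the inputs, so that its NAC inputs lay far above its VTA inputs while the 4 pull-downs lay between 3.96 and 5.08.

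**Figure D4:**
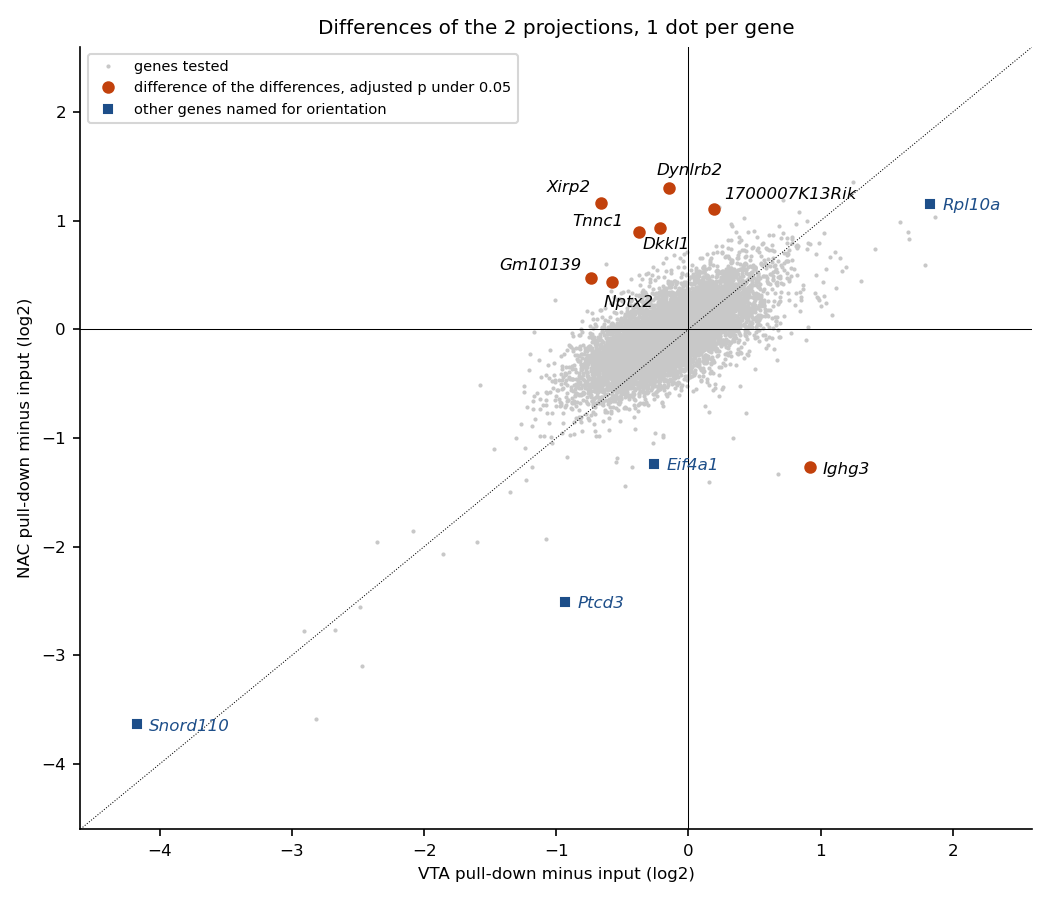
NAC difference (vertical axis) against VTA difference (horizontal axis) between pull-down and input, both log2, 1 grey dot for each of the 11712 genes tested. Orange points are the 8 genes whose differences departed from each other at an adjusted p under 0.05, blue squares are 4 other genes named in the text, and the dotted line marks equal differences. Xirp2 lies at 1.17 in NAC and -0.66 in VTA, and Ighg3 at -1.27 and 0.92.

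Beyond these 8, 6 further genes were called in opposite directions in the 2 projections without passing the test of the difference. Cyp11a1, Mrnip, Necab1, Ptgfrn and Tgm3 were higher in NAC and lower in VTA, and Igfbp4, a binding protein of insulin-like growth factors, was lower in NAC (-0.36) and higher in VTA (0.5). Necab1, a calcium-binding protein on the pyramidal tract list, was at 0.34 in NAC and -0.35 in VTA, with an adjusted p of 0.18 for the difference. Among markers of other cell types, Gad2 was at -0.79 in NAC and -0.74 in VTA, Mog at -0.92 and -0.6, and Csf1r at -0.66 and -0.57, while Cldn5 was at -0.42 in NAC and 0.001 in VTA.

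**Figure D5:**
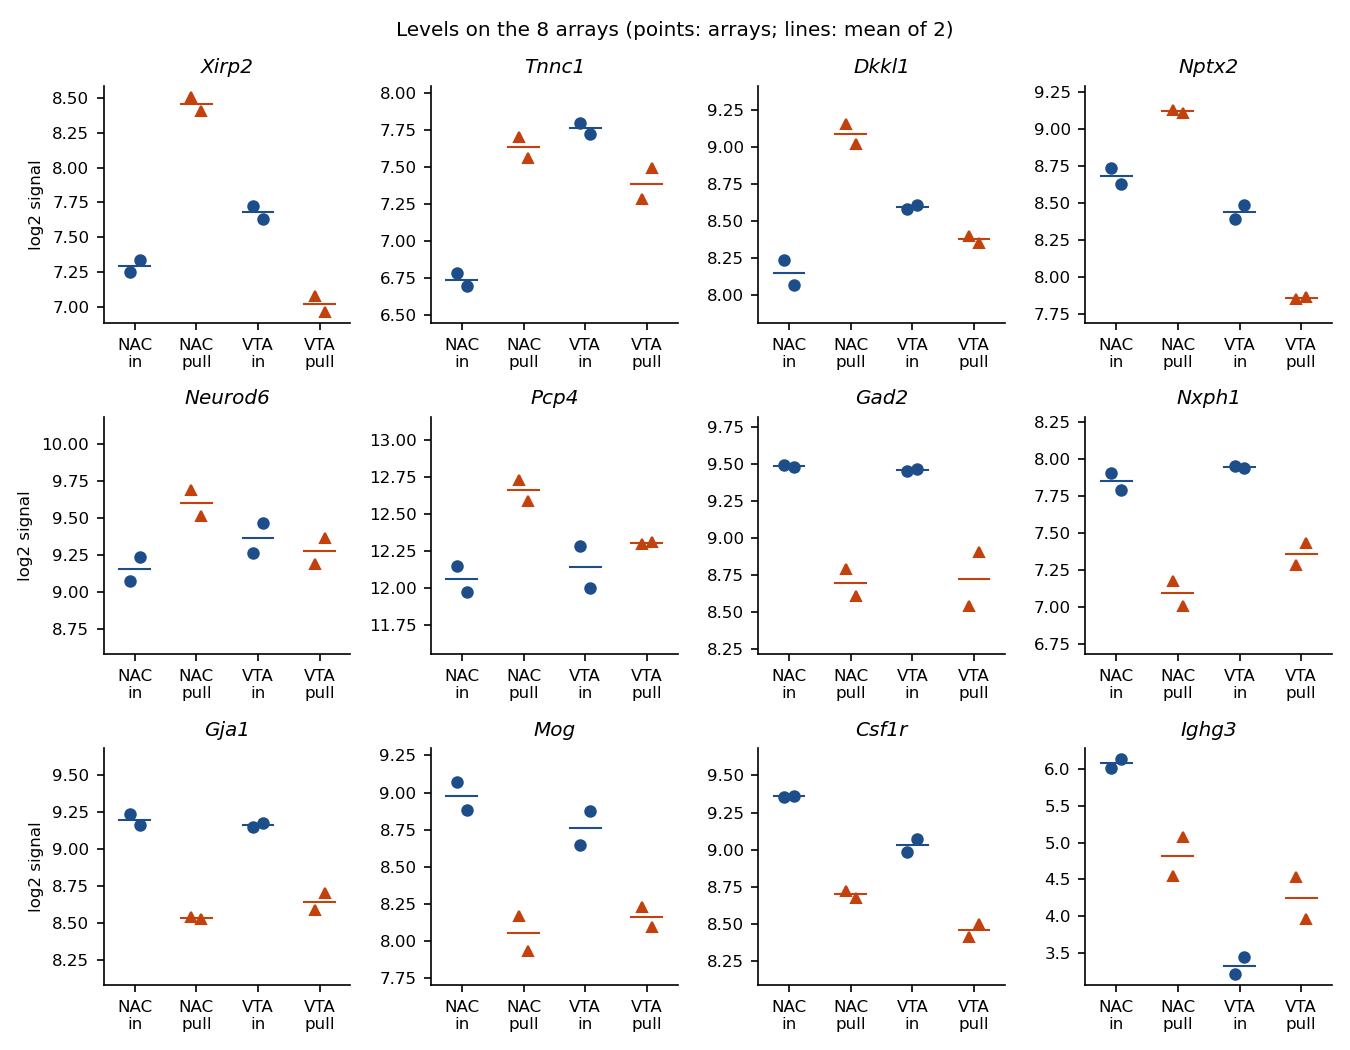
Log2 signal of 12 genes on all 8 arrays, circles for inputs and triangles for pull-downs, with lines at the mean of the 2 arrays of a group. Vertical axes differ between panels and do not start at 0. Xirp2, Tnnc1 and Nptx2 are higher in the NAC pull-downs than in their inputs and lower in the VTA pull-downs than in theirs, whereas Gad2, Nxph1, Gja1, Mog and Csf1r are lower in the pull-downs of both projections.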

How the data were processed

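Affymetrix expression arrays measured RNA of 8 samples in 4 groups of 2, and 4 of them enter the NAC comparison. The deposited table holds log2 signals per probe set, which the authors made with Transcriptome Analysis Console, per the submitters' processing notes. Neither its version nor the background correction, summarization or normalization is stated in the sources used here. RNA extraction used Trizol and a Qiagen kit, per the labels' protocols.

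Names of probe sets came from the annotation of the platform: 23521 of 41345 had 1 symbol, 1814 had several and 16010 had none, and 23328 of the 23521 matched a RefSeq gene table of GRCm38.p6. Array names can be old. A gene was read from its brightest probe set and tested where 2 or more of the 8 arrays lay above their own median of named genes. In R 4.3.3, limma 3.58.1 (lmFit, eBayes) fitted 4 group means to the log2 values of the 8 arrays. The fit had 4 residual and 6.07 prior degrees of freedom, two-sided tests, Benjamini-Hochberg adjustment over 11712 genes and a threshold of 0.05. The model was checked on simulated data. Of 393 genes with several testable probe sets, 0 had NAC calls in opposite directions.

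The rule for named genes took the 15 largest rises and 15 largest falls with groups apart and all 4 NAC arrays above the median. It added up to 4 called members of each list, the first 2 genes of each cell type list, Rpl10a, and genes that differed or were opposed between NAC and VTA. Other genes named were chosen after their values were seen. The 48 gene lists, some sharing members, and the rule were chosen with earlier results of these data known, so no list is independent evidence. Lists are described by counts and medians beside those of all genes. Alternatives were other scalings, filters, probe set rules, variance models, a replicate block and leaving out each array. Arrays carry no read depth.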

Additional observations from a re-analysis of the deposited data

Results flagged for a closer look

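In 8 genes the difference between pull-down and input differed between the NAC and VTA projections by limma's test of the difference itself, at an adjusted p under 0.05. Xirp2 passed under all 15 settings tried for it, and the other 7 lost the call under most, with 1 gene left when the replicate number was a block. NAC minus VTA, on the log2 scale, it was 1.83 for Xirp2, 1.45 for Dynlrb2, 1.27 for Tnnc1, 1.21 for Gm10139, 1.15 for Dkkl1, 1.02 for Nptx2, 0.91 for 1700007K13Rik and -2.19 for Ighg3. Of these, Xirp2, Tnnc1, Gm10139 and Nptx2 were called higher in NAC and lower in VTA, and Ighg3 lower in NAC and higher in VTA. Xirp2 has 2 probe sets, and with their mean its NAC minus VTA value was 0.99 (limma adjusted p = 0.045). Ighg3 and Dynlrb2 were above the array median on 2 of the 8 arrays each, the arrays of the NAC group where they were high, so their values are a description. For Ighg3 and Tnnc1 the inputs of the projections lay further apart than their pull-downs: Ighg3 inputs measured 6.02 and 6.14 in NAC and 3.21 and 3.45 in VTA, and Tnnc1 inputs 6.78 and 6.70 against 7.80 and 7.72. Whether differences between the dissected tissues took part in these results was not tested.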

How the results depend on the processing

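The NAC count of 1446 genes fell to 105 when no filter on dim genes was applied, which raised the genes tested to 22180, and the VTA count of 3671 fell to 1907. With single arrays left out the NAC count was 149 to 1126, the VTA count 415 to 3713 and the count for the difference of the projections 1 to 8. That last count, 8 with all arrays, was 2 with quantile normalization, 1 without the filter, 5 with each probe set tested on its own and 30 with an intensity trend in the variance model. Other settings left the NAC count between 1188 and 2028. Of the 163 called genes named, 41 passed under every setting that gave the gene a value, 145 after centring, and 0 changed sign. The replicate number as a block gave 1578 NAC genes, 1319 of them shared, and 1 gene for the difference. Deviations of same-numbered pull-down and input correlated at 0.299 in NAC and -0.022 in VTA. The labels tie no number to a shared animal or day, and whether the numbers pair the samples is unknown. Protein length, meant as a measure of gene size, was not run. Gene span, chosen after seeing the data, took its place, and over 12 settings the median NAC difference was 0.055 to 0.119 in the shortest 25% and -0.198 to -0.105 in the longest 25%. The number of arrays limits all of these counts, and in a group left with 1 array the spread is assumed to be that of the other groups.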

Other observations

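Further gene groups are given here as values, beside the 4.34% of all genes called higher and the 8.01% called lower. Chaperones and genes of the unfolded protein response had 2 of 33 members higher in the NAC pull-downs and 0 lower. They were Atf4, the transcription factor translated under stress (0.51 ± 0.12 (SE), adjusted p = 0.026), and Hspe1, the mitochondrial chaperonin cofactor (0.45 ± 0.11 (SE), adjusted p = 0.027). Long transcripts that host snoRNAs had 3 of 14 lower and 0 higher. Markers of striatal medium spiny neurons had 3 of 16 lower, Drd1 (-0.63), Pdyn (-0.53) and Meis2 (-0.43), and 0 higher. Of 7 midbrain dopamine neuron genes tested, 0 were called by limma, with 2 higher and 0 lower at an unadjusted p under 0.05, and Th, which makes dopa, was at -0.14 ± 0.12 (SE) (adjusted p = 0.47). Slc6a3, the dopamine transporter, was below the filter. Neurofilament and related genes had 0 of 6 called (1 lower at an unadjusted p under 0.05) and 14-3-3 proteins 0 of 7 (1 higher). Pseudogenes had 6 of 49 higher and 1 lower. Olfactory receptors, which cortex is not known for, had 1 of 24 higher (Olfr1502, 0.49 ± 0.14 (SE)) and 0 lower. The inputs of Olfr1502, at 5.75 and 5.62, were dimmer than the median of their array, so its value is a description.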
